A study of Mus musculus with 6 samples.

Results

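Transcripts of 9 amino acid transporter genes were examined in RET cells, a mouse melanoma line of strain C57BL\6, with and without silencing of Angpt2. The genes were Slc7a11, Slc7a5, Slc3a2, Slc7a1, Slc7a3, Slc1a4, Slc1a5, Slc38a2 and Slc6a9, and each was taken from the array row that names only that gene, the row with the highest mean over the 6 arrays where several did. This left 8 of the 9 genes, among 22180 genes in all. Slc6a9, the glycine transporter GlyT1, was dropped because its row also names a second gene. The row of a gene was thus chosen by its mean intensity, and the genes themselves were proposed with the intensities of these arrays already known, the high values on 1 control array among them. Levels and the pattern over the arrays are therefore given as a description.

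The Angpt2 shRNA-1 group held 3 cultures transduced with a short hairpin RNA against Angpt2, which encodes the secreted ligand angiopoietin-2. The control shRNA group held 3 cultures with a non-targeting hairpin, whose titles also carry the word GFP. Equal numbers of cells were seeded per well and grown for 24 h in high-glucose DMEM with 10% fetal calf serum, antibiotics and 1% non-essential amino acids, and 100 ng of total RNA per culture went onto a Mouse Gene 2.0 ST array. A single hairpin in a single line was measured with no rescue, so effects of Angpt2 loss and other effects of this hairpin cannot be told apart.

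The transporters differ in what they carry. Slc7a11 (xCT) imports cystine in exchange for glutamate, and the cystine is reduced to cysteine, which limits glutathione synthesis and protects cells from lipid peroxidation. Slc7a5 (LAT1) exchanges large neutral amino acids such as leucine, and both of these light chains reach the membrane only when bound to the heavy chain encoded by Slc3a2 (CD98hc, 4F2hc). Slc1a4, Slc1a5 and Slc38a2 are sodium-dependent carriers of small neutral amino acids and glutamine, whereas Slc7a1 and Slc7a3 carry the cationic amino acids arginine and lysine. Several of these genes are known targets of ATF4, the transcription factor of the integrated stress response, which binds C/EBP-ATF response elements, and Slc7a11 is also a known target of NRF2, which binds antioxidant response elements.

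The values were normalized intensities on a linear scale, and array medians over the genes tested lay between 87.8 and 90.02. Angpt2 had intensities of 100.2, 122 and 122 in Angpt2 shRNA-1 cells and 195, 372 and 326 in control shRNA cells (replicates 1, 2 and 3), so the groups did not overlap. Its log2 fold change was -1.33 (SE 0.21), with a limma adjusted p over all genes of 1.00, or 0.046 with a replicate block. An exact permutation test, two-sided, gave p = 0.1, and a comparison of 3 with 3 arrays cannot go lower. Melanocyte markers ranged widely in level. Tyrp1, a pigment enzyme gene, read 8904 to 9651 over the 6 arrays, and Pmel, which forms melanosome fibrils, 6546 to 7410. In contrast, Kit read 84.3 to 109.8 and Ednrb 63.0 to 87.9, and 1 of 12 melanocyte markers was dimmer than the median gene. All 8 endothelial markers, 6 of 7 leukocyte markers and 4 of 5 keratinocyte markers were dimmer than the median gene, and 3 of 8 fibroblast markers were. On control shRNA replicate 1 lay the highest value of the 6 arrays for 25.8% of all genes, control shRNA replicate 2 for 21.4%, and the other 4 arrays for 11.0% to 16.1% each. Control shRNA replicate 1 was also most often the lowest array, for 4321 of 22180 genes, against 3352 to 4226 for each of the others. No detection calls accompany the values, and a dim signal may be background.

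Slc7a11 (gene ID 26570, transcript cluster 17405082) varied most of the 8 genes. The stretch before its start site is shown because it holds a pair of C/EBP-ATF response element cores, and that of Slc1a4 because it holds a single match. Both are printed from 120 bases before to 10 bases after the RefSeq start site (GRCm38.p6), with matches to TGATGNAA on either strand in capitals. Slc7a11 lies at chr3:50443604-50443733 and Slc1a4 at chr11:20332704-20332833, each on the minus strand.
Slc7a11: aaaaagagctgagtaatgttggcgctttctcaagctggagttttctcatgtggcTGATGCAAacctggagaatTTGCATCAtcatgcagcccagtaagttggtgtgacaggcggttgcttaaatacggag
Slc1a4: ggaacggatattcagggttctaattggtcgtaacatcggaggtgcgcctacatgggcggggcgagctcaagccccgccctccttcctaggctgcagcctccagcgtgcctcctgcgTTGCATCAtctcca
In Slc7a11 the first match began 66 bases and the second 47 bases before the start site, in opposite orientation and 11 bases apart. In Slc1a4 the match, in the orientation opposite to the gene, began 4 bases before the start site and ran across it. The search covered the 250 bases before and 50 bases after the start. Over 32851 such promoter windows 3.97% held at least 1 match, and 23 windows (0.07%) held 2 or more. Promoter sequences were matched for 6 of the 9 genes. Slc3a2, Slc7a1, Slc38a2 and Slc6a9 held no match to these letters in their windows, and Slc7a5, Slc7a3 and Slc1a5 were not searched. The antioxidant response element cores TGACNNNGC and TGAGNNNGC were matched in 12.4% and 17.6% of all windows, on either strand. The Slc7a11 window held 1 match to TGAGNNNGC, 97 bases before the start and not overlapping the capitals, and none to TGACNNNGC. Windows of Slc1a4 and Slc6a9 also matched TGAGNNNGC, and windows of Slc7a1, Slc38a2 and Slc6a9 matched TGACNNNGC. A match describes letters only, and binding was not measured.

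Slc7a11 had an intensity of 327, 166.5 and 308 in Angpt2 shRNA-1 replicates 1, 2 and 3 and of 1184, 214.5 and 233 in control shRNA replicates 1, 2 and 3. The value of control shRNA replicate 1 stood 3.62-fold above the next array, and the 5 remaining arrays of both groups were intermixed. In bulk RNA a larger share of cells with much transcript and more transcript per cell cannot be told apart. The mean log2 intensity was 8.0 ± 0.54 in Angpt2 shRNA-1 cells and 8.60 ± 1.39 in control shRNA cells (SD, n = 3 each). The log2 range over the 6 arrays was 2.83, and 99.98% of genes had a smaller range. Without control shRNA replicate 1 the highest of the 5 arrays was 1.96-fold above the lowest, a range still larger than that of 99.2% of genes. The lowest value lay on Angpt2 shRNA-1 replicate 2. A dimmer row for the same gene (transcript cluster 17397421) read 86.9, 60.9 and 61.6 in Angpt2 shRNA-1 cells and 171, 82.1 and 66.2 in control shRNA cells. It too was highest on control shRNA replicate 1.

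The heavy chain gene Slc3a2 (gene ID 17254, transcript cluster 17362453) read 2566, 2320 and 2577 in Angpt2 shRNA-1 cells and 3657, 2331 and 2451 in control shRNA cells. Here too control shRNA replicate 1 was highest, 1.42-fold above the next array, and the other 5 arrays lay within 1.11-fold of each other. Its light chain partner Slc7a5 (gene ID 20539, transcript cluster 17513641) read 2396, 2097 and 2686 in Angpt2 shRNA-1 cells and 3442, 2405 and 2393 in control shRNA cells. Again control shRNA replicate 1 was highest, 1.28-fold above Angpt2 shRNA-1 replicate 3, and the groups overlapped. Slc3a2 had a log2 mean of 11.28 ± 0.09 in Angpt2 shRNA-1 cells and 11.43 ± 0.36 in control shRNA cells, and Slc7a5 had 11.22 ± 0.18 in Angpt2 shRNA-1 cells and 11.40 ± 0.30 in control shRNA cells (SD, n = 3 each).

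The cationic amino acid transporter Slc7a1 (CAT1; gene ID 11987, transcript cluster 17455401) read 1170, 908.5 and 1082 in Angpt2 shRNA-1 cells and 1486, 1016 and 1024 in control shRNA cells. The highest array was control shRNA replicate 1, 1.27-fold above the next, and the groups overlapped. Its relative Slc7a3 (CAT3; gene ID 11989, transcript cluster 17543529) read 58.3, 52.8 and 57.8 in Angpt2 shRNA-1 cells and 55.5, 53.0 and 58.1 in control shRNA cells. These values lie below the median of the genes tested on each array and cannot be told from background, and their spread over the arrays was 1.10-fold.

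Slc1a4 (ASCT1; gene ID 55963, transcript cluster 17260869), which exchanges alanine, serine, cysteine and threonine, read 478, 281 and 509 in Angpt2 shRNA-1 cells and 768, 296 and 358 in control shRNA cells. Control shRNA replicate 1 was highest, and replicate 2 was lowest in each group. The spread did not rest on that array alone, since the other 5 arrays still spanned 1.81-fold, more than 98.8% of genes. Slc1a5 (ASCT2; gene ID 20514, transcript cluster 17474143), a glutamine exchanger, read 743, 726 and 845 in Angpt2 shRNA-1 cells and 1644, 754 and 798 in control shRNA cells. Its value on control shRNA replicate 1 was 1.94-fold above the next array, and the other 5 arrays lay within 1.16-fold. A dimmer Slc1a5 row (transcript cluster 17486956) read 132, 128 and 136 in Angpt2 shRNA-1 cells and 216, 141 and 131 in control shRNA cells, with the same array highest. Slc38a2 (SNAT2; gene ID 67760, transcript cluster 17320928), a sodium-coupled importer of small neutral amino acids and glutamine, read 2799, 2413 and 2369 in Angpt2 shRNA-1 cells and 3169, 2132 and 2397 in control shRNA cells. Its highest array was only 1.13-fold above the next, and it was the only measured member whose lowest array was not Angpt2 shRNA-1 replicate 2.

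**Figure D1:**
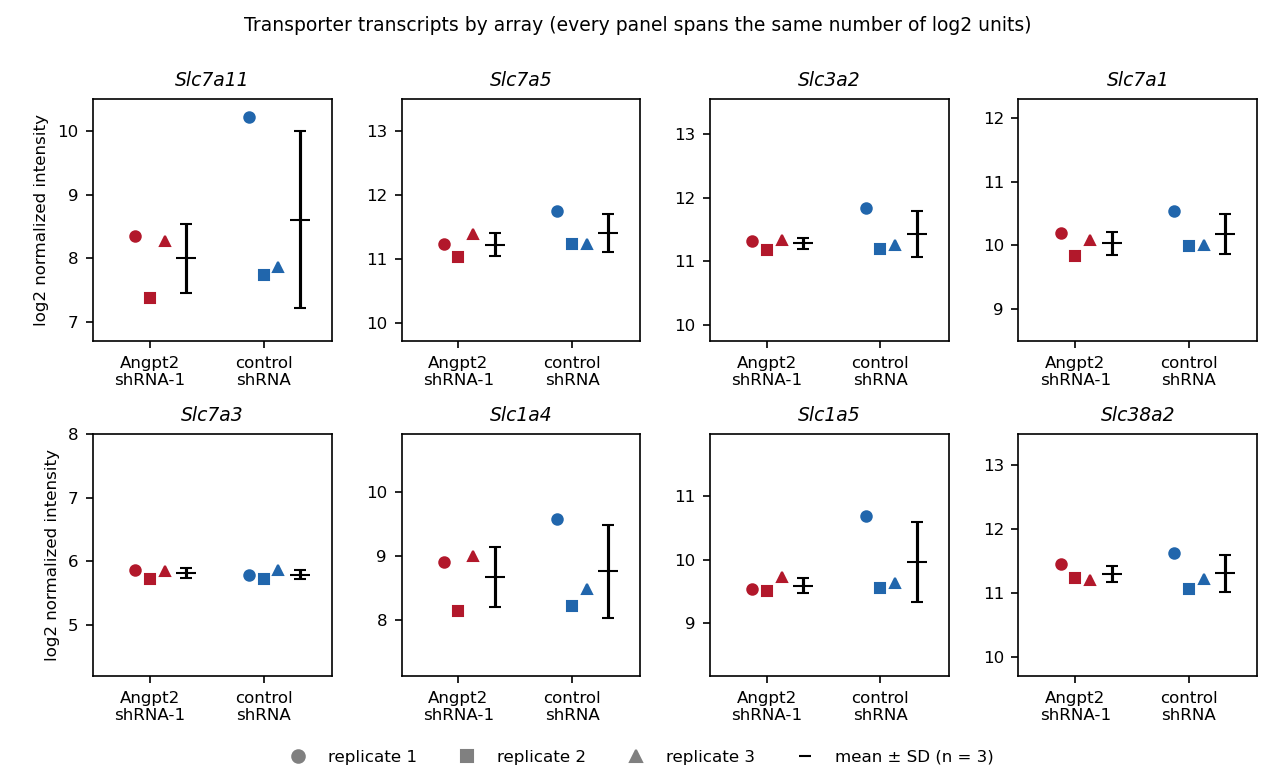
Log2 normalized intensity of each of the 8 measured transporters, with Angpt2 shRNA-1 arrays in red at the left and control shRNA arrays in blue at the right of each panel, the replicate number as the symbol, and mean ± SD (n = 3) in black. Control shRNA replicate 1 is the highest point for all genes but Slc7a3.

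Silencing of Angpt2 was not accompanied by a called change in any of the transporters. The limma fit called 0 of 8 at an adjusted p of 0.05, where 0% of all genes were called, and every member had an adjusted p of 1.00. At an unadjusted p under 0.05 it was also 0 of 8, against 3.76% of all genes. The groups did not overlap for 0 of 8 members, against 9.01% of all genes. Of the 8 log2 fold changes 7 were below 0, as were 54.8% over all genes, and the median was -0.15 against -0.01 over all genes tested.

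On the log2 scale Slc7a11 differed by -0.61 (SE 0.58, 95% interval -1.91 to 0.69), a difference smaller than the SD of the control cultures. For Slc1a5 it was -0.37 (SE 0.26, interval -0.95 to 0.20). The estimates for Slc7a5, Slc3a2, Slc7a1 and Slc1a4 ran from -0.18 to -0.08, and Slc7a3 (0.02) and Slc38a2 (-0.0058) were close to 0. The narrowest interval of the 7 brighter genes, that of Slc38a2, ran from -0.33 to 0.32 and so includes changes of up to that size in either direction.

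Of the 7 negative signs 5 turned without control shRNA replicate 1, the control culture with the least Angpt2. Within replicate number 1 the difference was negative for 7 of 8 genes, with a median of -0.52 on the log2 scale, and within number 2 also for 7 of 8, with a median of -0.06. Within number 3 it was positive for 6 of 8, with a median of 0.08. Of all 22180 genes, 12276 were negative within number 1, 11976 were negative within number 2 and 11290 were positive within number 3. The negative differences within number 2 include Slc7a3 (-0.0044) and Slc3a2 (-0.0073), both close to 0. For Slc7a11 the differences within numbers 1, 2 and 3 were -1.86, -0.37 and 0.41, with 1 array per group in each. Without control shRNA replicate 1, 6 of 8 log2 fold changes were above 0, against 47.0% of all genes. Slc7a11 was then at 0.20 (interval -0.39 to 0.78), Slc1a4 at 0.33 (interval -0.20 to 0.86), Slc38a2 at 0.16 (interval -0.09 to 0.41) and Slc1a5 at -0.01 (interval -0.24 to 0.22). The dimmer Slc7a11 row did not turn and was at -0.10 without that array, and the dimmer Slc1a5 row at -0.04. Outside control shRNA replicate 1, however, this Slc7a11 row read only 60.9 to 86.9. Those values lie below the array medians of the genes tested (87.8 to 90.02) and may be background. None of the 8 genes was called without that array either, where 0.00451% of all genes were.

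**Figure D2:**
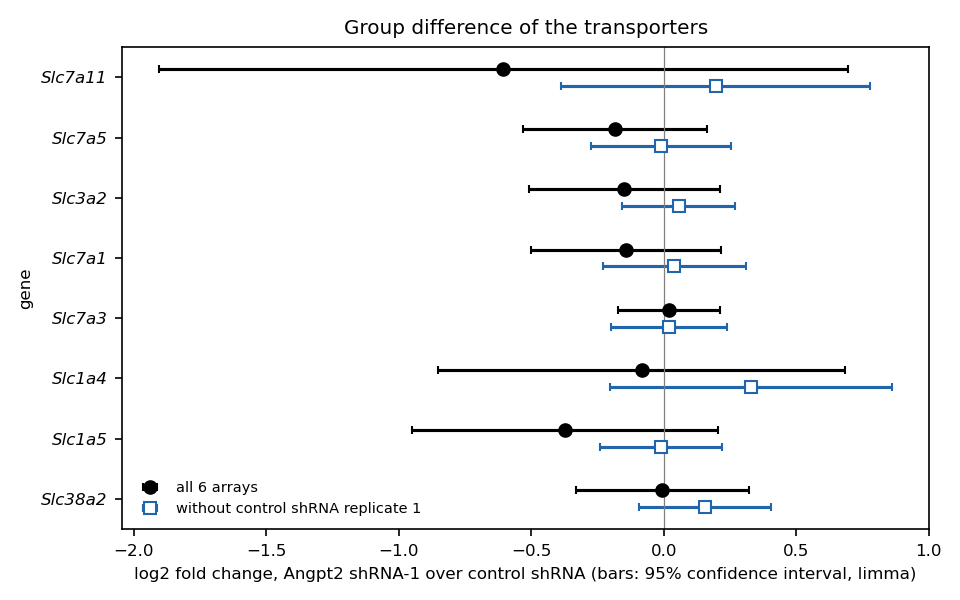
Log2 fold change of Angpt2 shRNA-1 over control shRNA for each transporter, with 95% confidence intervals from limma, for all 6 arrays (filled) and without control shRNA replicate 1 (open). Every interval includes 0, and for Slc7a11 the estimate lies at -0.61 with all arrays and at 0.20 without that array.

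The 7 brighter transporters varied together over the 6 cultures. Control shRNA replicate 1 was their highest array in 7 of 7 cases, and Angpt2 shRNA-1 replicate 2 the lowest in 6 of 7. On control shRNA replicate 1 the log2 deviation from the mean of the 6 arrays was 1.91 for Slc7a11, 0.91 for Slc1a5 and 0.87 for Slc1a4, and 0.33 to 0.48 for the other 4. Over the 21 pairs of these 7 genes, Pearson's r of log2 values (n = 6 arrays) ran from 0.68 to 0.99 with a median of 0.93, and Spearman's rho from 0.086 to 1.00 with a median of 0.83. After subtracting group means the median r was 0.94. No p is given because the genes were chosen with these values known.

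How much of this rested on the extreme arrays differed between pairs. Without the 2 arrays on which Slc7a11 lay farthest from its median, control shRNA replicate 1 and Angpt2 shRNA-1 replicate 2, r over the remaining 4 arrays ran from -0.23 to 0.99, with a median of 0.71. Slc7a11 with its heavy chain Slc3a2 had r = 0.99 and rho = 0.94 over 6 arrays and r = 0.95 over those 4. Slc3a2 was nearly flat there, however. Without control shRNA replicate 1 it spanned only 1.11-fold, and only 12.4% of genes had a smaller range. Slc7a11 with Slc1a4 had r = 0.94 and rho = 0.94, and r = 0.97 over the 4. For Slc7a11 with Slc1a5 r was 0.95 and rho 0.66, and r was 0.17 over the 4, so that relation rested on the extreme arrays. Slc7a5 with Slc3a2 had r = 0.94 and rho = 0.83, and r = 0.53 over the 4.

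The 5 genes whose profile over the 6 arrays lay nearest to that of Slc7a11, by root mean square distance of mean-centred log2 values among 11083 genes brighter than the median gene, were Pck2, Acot2, Atf5, Cyb5r2 and Hoxb9. Pck2, the mitochondrial phosphoenolpyruvate carboxykinase, read 768, 353 and 796 in Angpt2 shRNA-1 cells and 2324, 466 and 635 in control shRNA cells, at a distance of 0.16. Acot2, a mitochondrial acyl-CoA thioesterase, read 1576, 1156 and 1697 in Angpt2 shRNA-1 cells and 6799, 1347 and 1477 in control shRNA cells, at a distance of 0.17. Atf5, a transcription factor gene, read 266, 192 and 254 in Angpt2 shRNA-1 cells and 825, 207 and 214 in control shRNA cells, at a distance of 0.23. All 5 were highest on control shRNA replicate 1, and 4 of the 5 were lowest on Angpt2 shRNA-1 replicate 2, Cyb5r2 being lowest on control shRNA replicate 2. These counts largely follow from the choice of the genes by nearness to Slc7a11 on the same arrays. Distances were 0.23 for Cyb5r2, a cytochrome b5 reductase gene, and 0.25 for Hoxb9, a homeobox gene. Nearest to Slc7a5 were 5430416N02Rik, Kdm6b, a histone demethylase gene, and H1f10, a linker histone gene, at distances of 0.026, 0.047 and 0.052. Lrrc28, Hand1 and Tnxb were nearest to Slc7a3, whose flat profile many genes match.

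**Figure D3:**
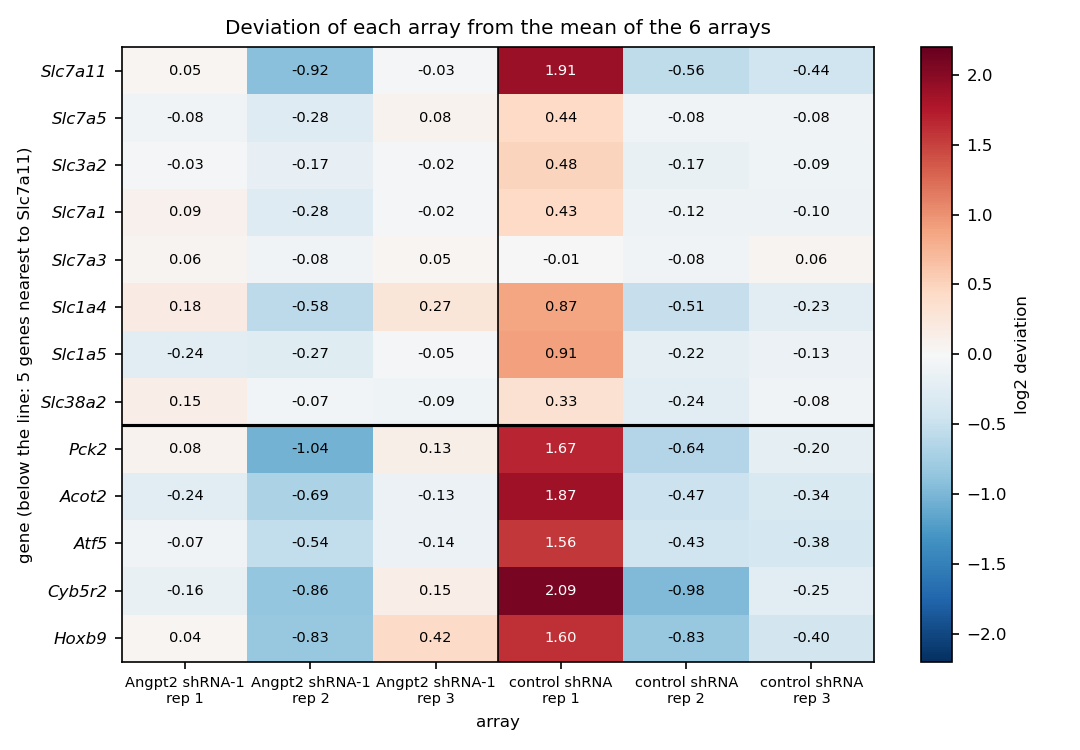
Log2 deviation of each array from the mean of the 6 arrays for the 8 measured transporters (above the line) and the 5 genes nearest to Slc7a11 (below it), with Angpt2 shRNA-1 arrays at the left and control shRNA arrays at the right. The control shRNA replicate 1 column is positive for every gene shown except Slc7a3, from 0.33 in Slc38a2 to 2.09 in Cyb5r2.

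Other lists are described by the same counts, and differences between lists were not tested. Of 37 other plasma membrane transporters, 9 were highest on control shRNA replicate 1 (24.3%, against 25.8% of all genes), 23 were dimmer than the median gene, 0 were called, and the median log2 fold change was -0.01. Of the other light chains that bind Slc3a2, Slc7a10 was dim (72.8 to 99.5 over the 6 arrays), and the remaining 3 were named after their values were seen. Slc7a6 read 508, 573 and 495 in Angpt2 shRNA-1 cells and 498, 553 and 573 in control shRNA cells, and Slc7a7 read 243, 255 and 234 in Angpt2 shRNA-1 cells and 274, 276 and 228 in control shRNA cells. Slc7a8 (LAT2) read 505, 364 and 441 in Angpt2 shRNA-1 cells and 460, 354 and 384 in control shRNA cells. For none of the 3 was control shRNA replicate 1 the highest array. Slc6a6, the taurine transporter, was the gene of this list with the largest absolute log2 fold change (0.24, SE 0.19). It read 2709, 2289 and 2534 in Angpt2 shRNA-1 cells and 1503, 2610 and 2437 in control shRNA cells. Its lowest array was control shRNA replicate 1, and without that array its values spanned 1.18-fold. Without control shRNA replicate 1 its log2 fold change was -0.010. Of 5 lysosomal transporters 3 were highest on control shRNA replicate 1 and 0 were called (median log2 fold change -0.08). Slc38a7, which exports glutamine from lysosomes, read 602.5, 515 and 465 in Angpt2 shRNA-1 cells and 1011, 590 and 547 in control shRNA cells (log2 fold change -0.39, SE 0.21, and -0.12 without control shRNA replicate 1).

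Of 27 ATF4 regulators and targets that are not transporters, 20 were highest on control shRNA replicate 1, as were 7 of the 8 transporters. The median log2 deviation on that array was 0.46 for the transporters, against 0.89 for the ATF4 list and 0.02 for all genes. None of the 27 was called, their median log2 fold change was -0.10, and without control shRNA replicate 1 it was 0.20. The folate enzyme gene Aldh1l2 had the largest absolute value in the list, -0.54 (SE 0.50), with intensities of 301, 271 and 616 in Angpt2 shRNA-1 cells and 1295, 313 and 379 in control shRNA cells, and a log2 fold change of 0.099 without control shRNA replicate 1. Atf4 itself, named after its values were seen, read 1548, 1257 and 1694 in Angpt2 shRNA-1 cells and 2056, 795 and 1245 in control shRNA cells. Its log2 fold change was 0.23 (SE 0.29), opposite in sign to the list median. Without control shRNA replicate 1 it was 0.58 (interval 0.14 to 1.02, limma adjusted p = 0.992). Of the 27 genes, 6 were above 0 with all arrays and 23 without that array. By median deviation the transporters were lowest on Angpt2 shRNA-1 replicate 2 (-0.27), whereas the ATF4 list was lowest on control shRNA replicate 2 (-0.51).

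Of 13 NRF2 and glutathione genes 4 were highest on control shRNA replicate 1, with a median deviation of 0.03 there, and 0 were called (median log2 fold change -0.06). Gpx4, the glutathione peroxidase that removes lipid peroxides, had the largest absolute value, -0.29 (SE 0.13), and -0.14 without control shRNA replicate 2. Single genes of this list deviated on control shRNA replicate 1 by -0.23 (Nqo1) to 1.15 (Hmox1). Of 25 genes of amino acid sensing by mTORC1, 5 were highest on control shRNA replicate 1 and 0 were called (median -0.0048), with Bmt2, the S-adenosylmethionine sensor SAMTOR, at -0.25 (SE 0.12). Bmt2 was weakest, -0.14, with Angpt2 shRNA-1 replicate 2 left out, and strongest, -0.37, with Angpt2 shRNA-1 replicate 3 left out. Of 5 measured genes of glutamine use, 2 were highest on that array and 0 were called (median -0.07), with the alanine aminotransferase gene Gpt2 at -0.25 (SE 0.44), turning to 0.25 without control shRNA replicate 1 or 0.10 without Angpt2 shRNA-1 replicate 2. Gpt2 read 426, 221 and 485 in Angpt2 shRNA-1 cells and 843, 229 and 394 in control shRNA cells.

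**Figure D4:**
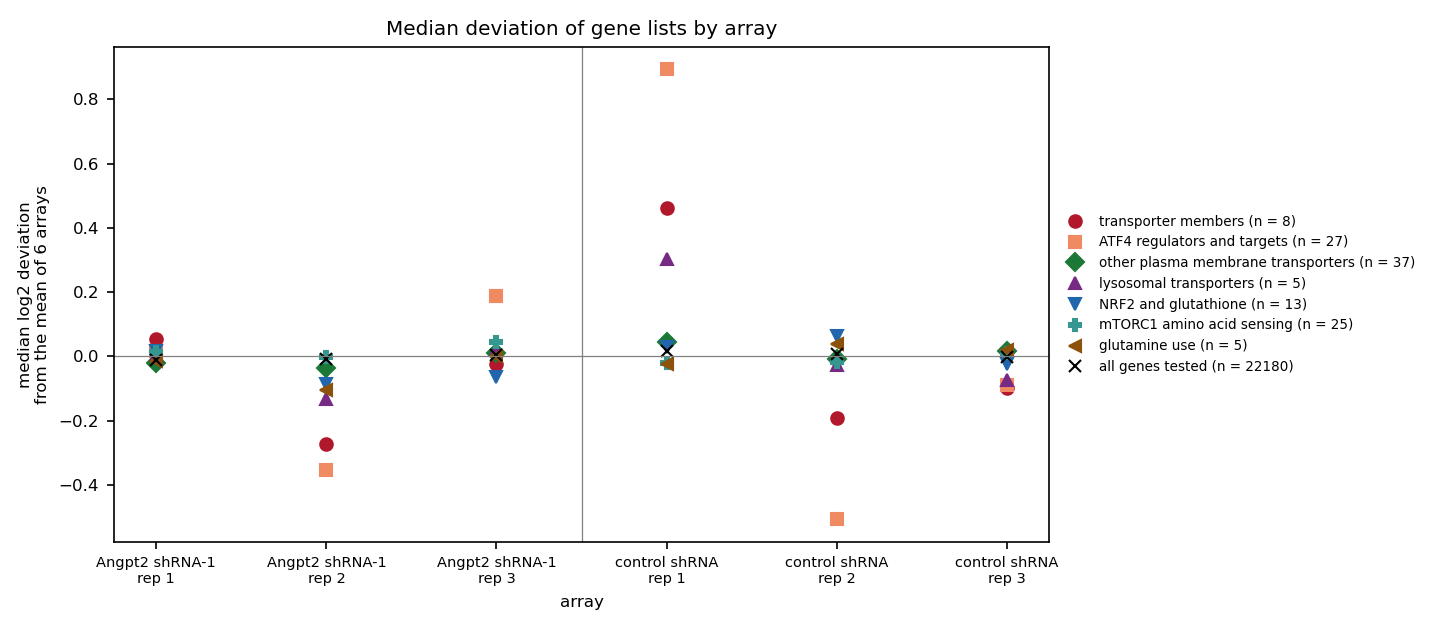
Median log2 deviation from the mean of the 6 arrays, by array, for the transporters, the 6 lists of transport, stress and sensing genes and all genes tested, with Angpt2 shRNA-1 arrays at the left and control shRNA arrays at the right. On control shRNA replicate 1 the transporters lie at 0.46, the ATF4 list at 0.89 and the lysosomal transporters at 0.30, and the other 4 lists shown and all genes lie between -0.02 and 0.04.

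Marker lists of cell identity had median deviations of -0.05 to 0.12 on control shRNA replicate 1, against 0.02 for all genes. No marker was called in the comparison of the groups. That array was highest for 66.7% of melanocyte and 71.4% of leukocyte markers, against 25.8% of all genes. For the other marker lists the share was 20% to 25%. Single markers deviated more on that array, from -0.27 for Krt14 to 0.61 for Tyr. Of 12 melanocyte lineage genes 8 were highest there, with a median log2 deviation of 0.11, and their summed intensity was 37402 to 40281 on the Angpt2 shRNA-1 arrays and 38204 to 41609 on the control shRNA arrays, with Mitf, the lineage regulator, at a log2 fold change of -0.20 (SE 0.08). Of 7 leukocyte markers, 6 of them dimmer than the median gene, 5 were highest there, with a median deviation of 0.12 and sums of 526 to 541 on Angpt2 shRNA-1 arrays and 499 to 594 on control shRNA arrays, and Cd68 at -0.14 (SE 0.11). Leaving out control shRNA replicate 1, Angpt2 shRNA-1 replicate 2 or control shRNA replicate 3 put Cd68 at -0.041, -0.060 or -0.21. Their part in the transporter values was not tested. Fibroblast, endothelial and keratinocyte markers were highest there for 2 of 8, 2 of 8 and 1 of 5 genes. Their largest absolute log2 fold changes were 0.16 for Pdgfrb, 0.23 for Cdh5 and -0.07 for Krt1. Cdh5 was lowest, 0.062, with control shRNA replicate 2 left out and highest, 0.43, with Angpt2 shRNA-1 replicate 2 left out. Krt1 was at 0.020 without control shRNA replicate 2.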

How the data were processed

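The authors deposited a normalized intensity for each transcript cluster. Their background correction, summarization and normalization are not given in the sources used here. A range of 28.1 to 12624 shows a linear scale. Of 41345 rows, 40425 had a value on all 6 arrays, and those with exactly 1 gene symbol in the platform annotation gave 22180 genes, 1 row each (highest mean). No pseudocount was added before taking log2. Angpt2 shRNA-1 was compared with control shRNA by limma 3.58.1 under R 4.3.3 (lmFit, eBayes). Two-sided p-values were adjusted by Benjamini-Hochberg across the 22180 genes, with 0.05 as threshold. The fit was tested on simulated data.

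The members and gene lists were chosen with earlier results of these data known. The lists were 6 of transport, stress and sensing genes and 5 of cell type markers. Named genes are the members, Angpt2, the member of each list with the largest absolute log2 fold change (no list had a called member), and the nearest profiles of Slc7a11 (5), Slc7a5 (3) and Slc7a3 (3). Others were named after their values were seen.

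Groups share replicate numbers, and deviations from group means correlated across genes at 0.13, 0.21 and 0.14 between arrays of the same number. Between arrays of different numbers the correlations ran from -0.19 to 0.06. Deviations within a group sum to 0, so these correlations are not independent of each other. On this ground alone, which the labels do not state, pairing of same-numbered arrays was allowed for in an alternative fit, the replicate block. The main fit and the exact permutation test treated the arrays as unpaired. Alternatives were the replicate block, quantile normalization, centring on array medians, genes above the median level, the mean of all rows of a gene, all complete rows, trend and robust options, array weights, a pseudocount of 16, and leaving out each array or both arrays of a replicate number. The number of arrays limits the precision.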

Additional observations from a re-analysis of the deposited data

How the results depend on the processing

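No transporter was called under any of the 18 alternatives, with limma adjusted p-values between 0.863 and 1.00, and the replicate block changed no call among them. The count of called genes over the whole table was 2 with the replicate block (Angpt2 and Pld4), 1 each with quantile normalization, centring on array medians and trend and robust options (Pld4), and 0 to 2 with arrays left out. Angpt2 was at -1.33 with the replicate block (adjusted p = 0.046) and between -1.61 and -1.14 with arrays left out. It was called without control shRNA replicate 1 (adjusted p = 0.0116) and without both replicate 1 arrays (adjusted p = 0.0404).

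The median log2 fold change of the transporters was between -0.31 and 0.05 with arrays left out. The direction of Slc38a2 turned with quantile normalization (0.0062), centring on array medians (0.010) and array weights (0.038). With arrays left out, the log2 fold change ran from -1.11 to 0.20 for Slc7a11, -0.27 to 0.056 for Slc3a2, -0.25 to 0.039 for Slc7a1, -0.014 to 0.065 for Slc7a3, -0.38 to 0.33 for Slc1a4, -0.60 to 0.014 for Slc1a5 and -0.13 to 0.16 for Slc38a2, so each of these changed sign. Slc7a5 stayed below 0 under all 18 alternatives (-0.36 to -0.01). Among list genes the ranges were -0.067 to 0.45 for Slc6a6, -1.16 to 0.25 for Aldh1l2, -0.69 to 0.25 for Gpt2, -0.20 to 0.038 for Krt1, -0.39 to -0.14 for Gpx4, -0.56 to -0.12 for Slc38a7, -0.37 to -0.14 for Bmt2, 0.062 to 0.43 for Cdh5, -0.25 to -0.041 for Cd68, 0.078 to 0.24 for Pdgfrb and -0.25 to -0.16 for Mitf. The median r over the 21 pairs was 0.71 without the 2 arrays farthest in Slc7a11. Slc7a3, Cdh5 and Krt1 were not among the genes above the median level, so that alternative gave no estimate for them.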
